A study of Arabidopsis thaliana with 6 samples.

Results

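The cold-regulated COR and LEA genes examined here were a list of 9 Arabidopsis loci: COR15A (AT2G42540), COR15B (AT2G42530), KIN1 (AT5G15960), KIN2 (AT5G15970), RD29A (AT5G52310), COR47 (AT1G20440), ERD10 (AT1G20450), COR413IM1 (AT1G29395) and AT1G29390, a COR413-type gene of the inner chloroplast membrane. A locus entered when the array's annotation, or failing that a shortened copy of the study's supplementary table of changed genes, gave it a probe set, which is a group of short oligonucleotides that together measure 1 transcript. This found 5 of the 9 loci on 4 of 22746 probe sets, all 4 through the annotation, because KIN1 and KIN2 shared 1 probe set and could not be told apart. RD29A, ERD10, COR413IM1 and AT1G29390 were not analysed here. The loci were selected on their known regulation by cold and on their difference between light submergence and control in these same arrays, so the values are given as a description, without a test. Transcripts were measured on 6 Affymetrix ATH1 arrays. Of these, 3 came from 4-week-old wild-type plants (ecotype Columbia) held 5 to 10 cm under water in the light for 48 h, called light submergence. The other 3 came from untreated 4-week-old plants of the same ecotype at 0 h, called control. All plants grew in days of 16 h light and 8 h dark, and each sample was described as a biological replicate collected from 3 plants. The labels named leaves as the tissue and the methods rosettes. Control tissue was taken at the start, which left the submerged plants 48 h older at harvest, and by the methods the light was weaker during submergence than during growth. Age, light and submergence cannot be told apart in this design.

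COR and LEA proteins are mostly small, very hydrophilic proteins that accumulate when plant cells lose water, during chilling and freezing or drought and, for many LEA proteins, late in seed development. The COR15 proteins are imported into the chloroplast, where they protect membranes during freezing. KIN1 and KIN2 encode small hydrophilic proteins of the same cold response, COR47 and ERD10 are dehydrins, and COR413 proteins are membrane proteins. In Arabidopsis the CBF transcription factors, themselves induced by cold, bind the promoters of many COR genes, and abscisic acid (ABA) induces several of them as well.

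The deposited values were log2 signals. Background was taken as the 40th percentile of each array, which lay at 5.84, 5.55 and 5.83 on the submerged arrays and at 6.39, 6.35 and 6.17 on the control arrays. Correlations between arrays were 0.921 within light submergence, 0.909 to 0.924 within the controls and 0.732 to 0.806 between conditions. Of 9 leaf markers only RCA, for Rubisco activase, had a named probe set. RCA averaged 14.03 ± 0.34 after light submergence and 15.14 ± 0.21 in controls (SD, n = 3 each), a log2 difference of -1.11 (adjusted p = 0.00457, limma), whose part in the results was not tested. Of 6 root markers 2 were measured, and PYK10 and EXPA7 were above background on 0 of 3 submerged arrays each, and on 1 and 0 of 3 control arrays. No seed or flower marker of the lists used had a named probe set. At4g27450, a hypoxia-responsive gene, was 5.81 higher on the log2 scale after light submergence (standard error 0.20, adjusted p = 3.39e-08, limma). In RNA from whole leaves, fewer cells that express a gene and less of its RNA in each cell cannot be told apart.

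COR15A and COR15B were both far lower after light submergence. COR15A had log2 signals of 0.89, 3.59 and 4.74 on the submerged arrays, against 11.91, 12.40 and 10.69 on the control arrays. It was below background on all 3 submerged arrays and far above it on all 3 control arrays, with no overlap between the groups. The means were 3.07 ± 1.97 after light submergence and 11.67 ± 0.88 in controls (SD, n = 3 each), a log2 difference of -8.59 (standard error 0.83). Because the submerged signal lay below background, the change is better read as a bound, and COR15A was at least 60.7-fold lower. The bound is against the submerged arrays' own background, and would be smaller against the higher background of the control arrays. COR15A was lowest on submerged replicate 1, and the log2 difference was -7.50 without that array and -9.42 without submerged replicate 3, the range over single omitted arrays.

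COR15B, the neighbouring gene, had log2 signals of 6.32, 4.86 and 5.95 on the submerged arrays, against 11.33, 12.17 and 11.01 on the control arrays. It thus lay close to background after light submergence, just above it on 2 arrays and below it on replicate 2, and the groups did not overlap. COR15B averaged 5.71 ± 0.76 after light submergence and 11.50 ± 0.60 in controls (SD, n = 3 each), a log2 difference of -5.80 (standard error 0.39), or 55.6-fold lower. When 1 array was left out, the difference ranged over -6.10 to -5.37. Both COR15 genes had their highest control signal in control replicate 2 and their lowest in control replicate 3.

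**Figure D1:**
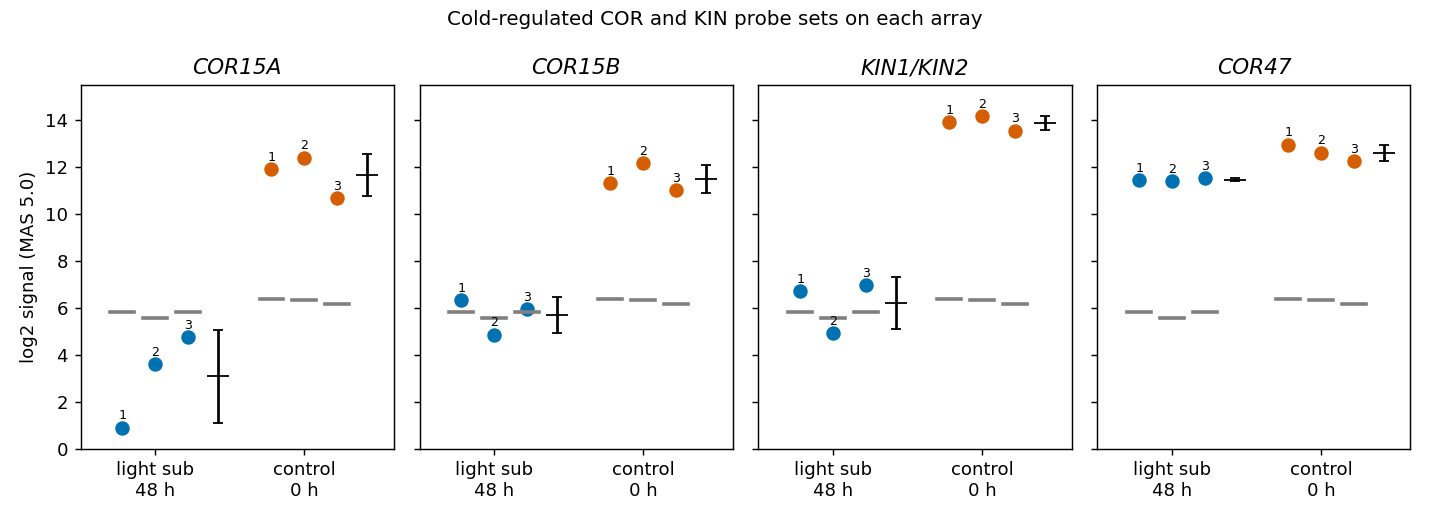
Log2 signal (MAS 5.0) of the 4 cold-regulated probe sets on each array, with light submergence 48 h (blue) left of control 0 h (orange), the replicate number above each point, the mean and SD (n = 3) in black and each array's background as a grey bar. COR15A, COR15B and KIN1/KIN2 were near or below background on the submerged arrays and between 10.69 and 14.18 on the control arrays, while COR47 stayed between 11.41 and 11.54 on the submerged arrays.

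The probe set of KIN1 and KIN2 had log2 signals of 6.71, 4.93 and 6.96 on the submerged arrays, against 13.92, 14.18 and 13.55 on the control arrays. The control signals were tight and high, and those after light submergence lay around background, again lowest in replicate 2, where alone KIN1/KIN2 was below background. The groups did not overlap. KIN1/KIN2 averaged 6.20 ± 1.11 after light submergence and 13.88 ± 0.31 in controls (SD, n = 3 each), a log2 difference of -7.68 (standard error 0.44), or 205-fold lower. Without submerged replicate 2 it was -7.04, or 132-fold lower. Since the probe set is assigned to both genes, its decrease belongs to their summed transcripts, and a difference between KIN1 and KIN2 could not be seen.

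COR47, the dehydrin of the list with a probe set, fell much less. Its log2 signals were 11.45, 11.41 and 11.54 on the submerged arrays, against 12.95, 12.61 and 12.26 on the control arrays. All 6 signals were well above background, and the 3 submerged arrays lay within a narrow band below the lowest control. COR47 averaged 11.47 ± 0.06 after light submergence and 12.61 ± 0.35 in controls (SD, n = 3 each), a log2 difference of -1.14 (standard error 0.19), or 45.4% of the control signal. When 1 array was left out, it ranged over -1.31 to -0.97. The spread of COR47 was thus in the controls, with control replicate 1 the highest.

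The 4 probe sets shared a direction, and COR47 changed least. Against the control mean of the same probe set, COR47 changed by -1.15, -1.19 and -1.07 on the 3 submerged arrays, and COR15B by -5.18, -6.65 and -5.56. KIN1/KIN2 changed by -7.17, -8.95 and -6.92, and COR15A by -10.77, -8.08 and -6.93. The ranges of COR15A and KIN1/KIN2 overlapped, whereas every COR47 value was nearer to 0 than every value of the other 3 probe sets. Submerged signals of those 3 lay near or below background, so their decreases cannot be ranked by these values. With submerged signals raised to the 40th percentile, the decreases were at least 60.7-fold for COR15A and at least 47.3-fold for COR15B. Submerged replicate 2 was the lowest array for COR15B, KIN1/KIN2 and COR47, but not for COR15A, and control replicate 3 was the lowest control for all 4.

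How near COR15B and KIN1/KIN2 came to background depended on where background was set. With the 30th percentile of each array both were above it on 3 of 3 submerged arrays. With the 40th percentile both lay below it on replicate 2 only. Raising that signal to background gave decreases of at least 47.3-fold for COR15B and at least 178-fold for KIN1/KIN2. With the 50th percentile they were above it on 0 of 3, and the fold became a bound of at least 26.1 for COR15B and at least 136 for KIN1/KIN2. COR15A was at least 108-fold lower with the 30th percentile and at least 29.2-fold lower with the 50th. COR47 was above background on all arrays with each of these levels.

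Submerged signals lower than every control signal were found for all 4 probe sets, and for 31.5% of all probe sets, while 24.3% of all probe sets fell in the test (adjusted p under 0.05 from limma and at least 1.5-fold). A decrease of at least 16-fold in the fit was found for 3 of the 4, and for 2.50% of all probe sets, or 4.02% of the 12674 probe sets above background on all 3 control arrays. The median log2 difference was -6.74 over the 4 probe sets and -0.26 over all probe sets, for which it was 0.02 after quantile normalization. These shares stand as background, since the genes were chosen with this contrast in view.

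**Figure D2:**
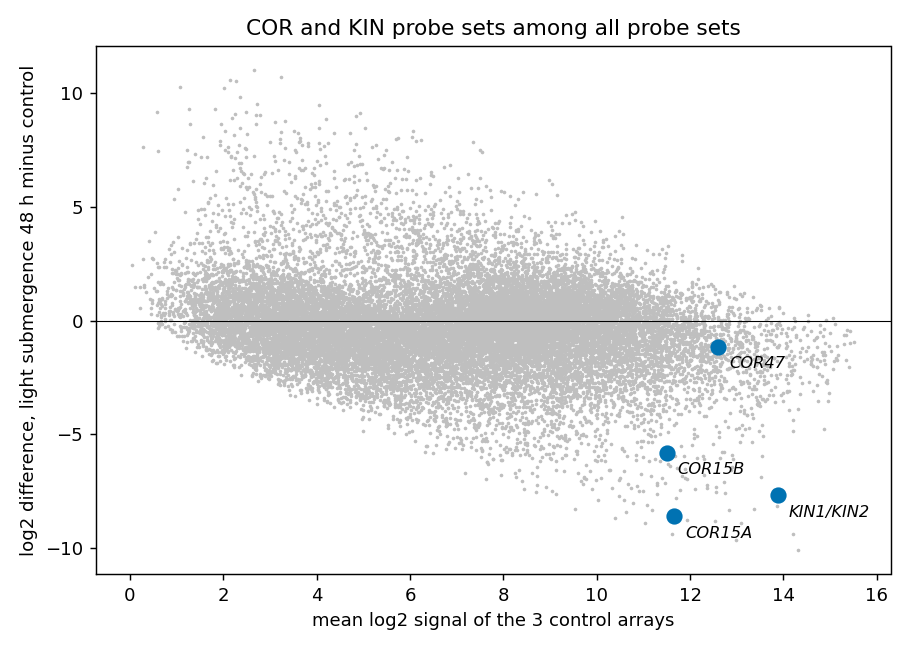
Log2 difference, light submergence 48 h minus control, against the mean log2 signal of the 3 control arrays, for all 22746 probe sets (grey) and the 4 cold-regulated probe sets (blue). COR15A, KIN1/KIN2 and COR15B lay at -8.59, -7.68 and -5.80, and COR47 at -1.14 lay inside the cloud. The submerged signal of COR15A was below background, so its depth on this axis is not exact.

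The listed genes lie in pairs on the genome. COR15B and COR15A are next to each other among the protein-coding genes of chromosome 2, KIN1 and KIN2 on chromosome 5, COR47 and ERD10 on chromosome 1, and AT1G29390 and COR413IM1 also on chromosome 1. On one side of the COR15 pair, At2g42520 had a log2 difference of 0.32 (standard error 0.14, adjusted p = 0.0911, limma) and At2g42490 one of 0.39, neither of which passed the test with at least 1.5-fold. On the other side the LEA gene At2g42560 was below background on every array, and TBL39, of the trichome birefringence-like family, fell (at least 1.84-fold, adjusted p = 0.00432, limma). TBL39 averaged 6.62 in controls, just above background there, and its bound is against the lower background of the submerged arrays.

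Beside KIN1, At5g15950 fell, with log2 signals of 6.68, 4.95 and 6.88 on the submerged arrays, against 8.60, 8.20 and 8.71 on the control arrays. Its groups did not overlap, and its log2 difference was -2.33 (standard error 0.47, adjusted p = 0.00215, limma). The submerged signals of At5g15950 and of KIN1/KIN2 both lay around background, with replicate 2 the lowest and alone below it. Their control means were 8.50 and 13.88, so the sizes of their decreases were not compared. On the far side of KIN2, At5g15980 had a difference of -0.47 and At5g16010 one of 0.56, and neither passed. Beside COR47, At1g20430 had a difference of -0.23 and At1g20410 one of 0.41, and neither passed (adjusted p = 0.333 and 0.251, limma). At5g15940 near KIN1, and At1g20480 and At1g20490 near COR47, were below background on every array.

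**Figure D3:**
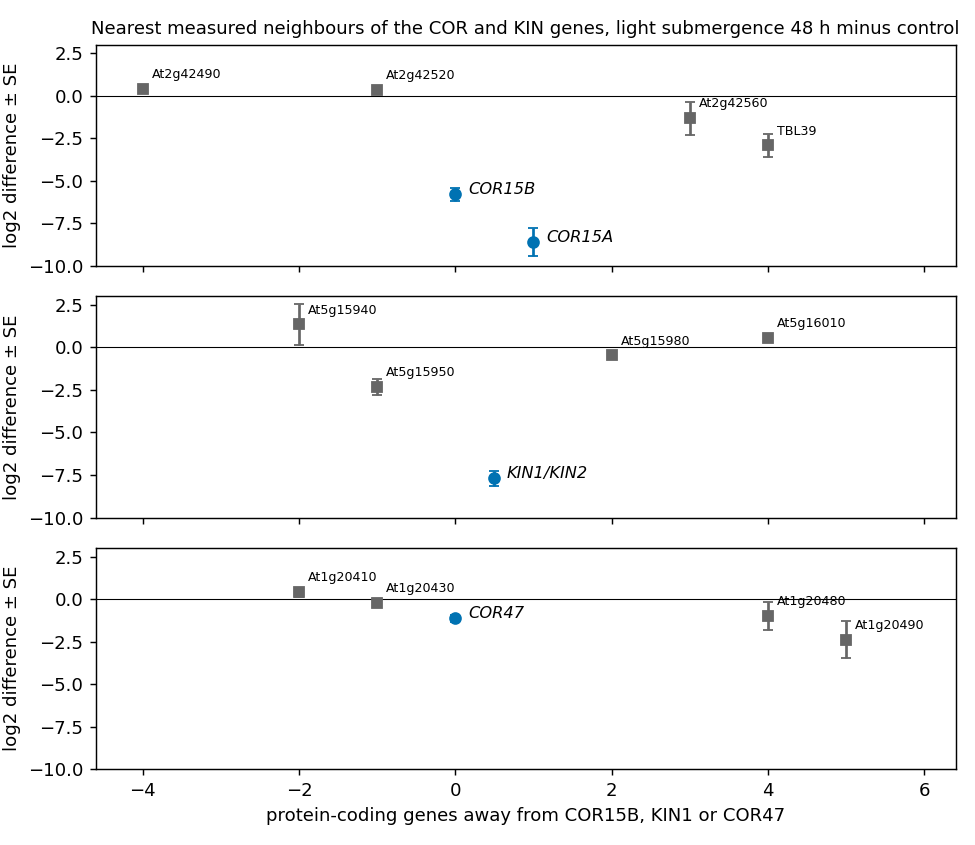
Log2 difference with its standard error, light submergence 48 h minus control, against the number of protein-coding genes away from COR15B (top), KIN1 (middle) and COR47 (bottom), for the cold-regulated genes (blue circles) and the up to 2 nearest measured genes on each side (grey squares). The COR15 and KIN probe sets lay below -5, and At5g15950 beside KIN1 at -2.33. TBL39 was below background on the submerged arrays and just above it on the control arrays. For it only a decrease of at least 1.84-fold, against the submerged arrays' background, can be given.

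The genes whose pattern over the 6 arrays was most like the mean pattern of the 4 probe sets were sought by the root mean square difference of log2 signals, each centred on its control mean. They were At2g22610 (0.231), BCAT4 (0.331), which encodes an aminotransferase of glucosinolate synthesis, At3g17640 (0.355), At5g05960 (0.387) and Cpn60beta2 (0.410), which encodes a chloroplast chaperonin subunit. None of the 5 belonged to the cold or LEA lists, but these had only 2, 5 and 32 measured genes, among 13286 measured loci. Their absence from the 5 therefore says nothing about cold or LEA genes. At2g22610 was above background on 2 of 3 control arrays and 0 of 3 submerged arrays. No fold is given for At2g22610, because its control mean of 6.31 lay at the background of the control arrays. At3g17640 and At5g05960 were also above background on 0 of 3 submerged arrays, so the likeness of these 3 rests on signals below background. The list's own probe sets were farther from their mean pattern, between 0.466 for COR15B and 3.32 for COR47. BCAT4 had log2 signals of 6.26, 6.65 and 6.95 on the submerged arrays, against 12.48, 13.01 and 12.42 on the control arrays, and was above background on all 6. Its lowest submerged array was replicate 1, as for COR15A, where COR15B, KIN1/KIN2 and COR47 were lowest in replicate 2.

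Other genes known for induction by cold did not share 1 direction. Of 25 listed, 5 had a probe set named by the annotation, of which 3 were higher, 1 was lower and 1 missed the criteria, beside 15.7% of all measured loci that rose and 22.6% that fell. XERO2 (LTI30, At3g50970), a dehydrin induced by cold, had log2 signals of 6.37, 5.84 and 6.97 on the submerged arrays, against 8.46, 8.34 and 8.52 on the control arrays. The groups did not overlap, and XERO2 fell by 2.05 on the log2 scale (standard error 0.32, adjusted p = 0.00039, limma), to just above background on the 3 submerged arrays. COR28 (At4g33980), a regulator induced by both cold and light, had log2 signals of 11.06, 11.07 and 11.11 after light submergence, against 9.69, 10.22 and 10.16 in controls, and rose by 1.05 (standard error 0.16, adjusted p = 0.000388, limma). Its close relative COR27 (At5g42900) had a log2 difference of -0.31 (adjusted p = 0.143, limma), with overlapping groups.

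2 genes listed as relatives of the COR413 family were higher after light submergence. At2g23680 had log2 signals of 9.94, 10.22 and 9.92 on the submerged arrays, against 7.65, 7.23 and 7.11 on the control arrays, and rose by 2.70 (standard error 0.20, adjusted p = 2.62e-06, limma). At4g37220, above background on no control array and on all 3 submerged arrays, rose at least 2.77-fold (adjusted p = 0.00201, limma). COR413IM1, AT1G29390, COR413-PM1, COR413-PM2 and RD29B had no named probe set.

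**Figure D4:**
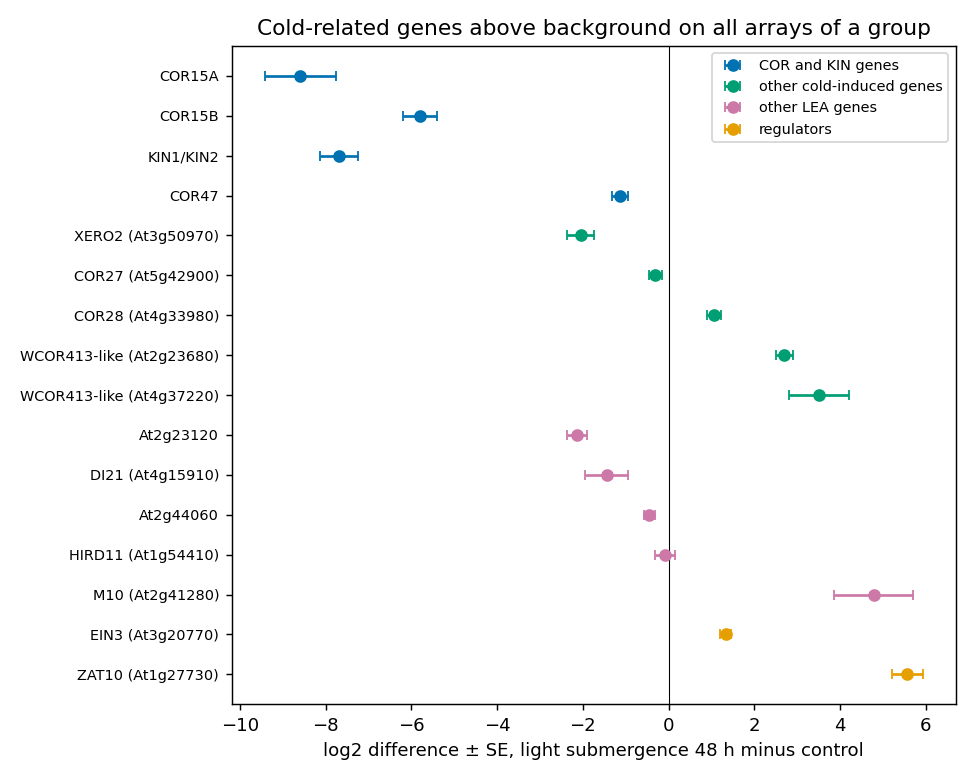
Log2 difference with its standard error, light submergence 48 h minus control, for the 4 cold-regulated probe sets (blue), other cold-induced genes (green), other LEA genes (pink) and regulators (orange) above background on all arrays of at least 1 condition. COR15A, KIN1/KIN2 and COR15B lay farthest to the left. XERO2 at -2.05, At2g23120 at -2.13 and DI21 at -1.44 lay left of COR47, and ZAT10 at 5.57 lay farthest to the right. COR15A after light submergence, and M10 and At4g37220 in controls, were below background on every array, so their positions are not exact. Nor is that of ZAT10, which was above background on only 1 of 3 control arrays.

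Of 34 regulators of the cold response listed, 2 had a probe set named by the annotation, and both rose, beside 15.7% of all measured loci. EIN3 (At3g20770), the transcription factor of ethylene signalling, which is known to repress CBF genes, had log2 signals of 11.50, 11.61 and 11.62 on the submerged arrays, against 10.18, 10.20 and 10.35 on the control arrays. The groups did not overlap, and EIN3 was 2.52-fold higher (log2 difference 1.33, standard error 0.13, adjusted p = 1.68e-05, limma). ZAT10 (At1g27730), a zinc-finger protein induced by cold and other stresses, had log2 signals of 12.05, 11.60 and 11.42 after light submergence, against 5.26, 6.20 and 6.90 in controls, of which 1 was above background. It rose by 5.57 (standard error 0.36, adjusted p = 1.1e-06, limma). CBF1 to CBF4 and ICE1 were not analysed here, so the levels of the CBF factors, which bind the promoters of many COR genes, are not known from these values. Another 6 regulators, among them MYB15 and RAP2.1, were named only through the shortened copy of the study's table of changed genes, whose 1998 rows used here are of raised genes. That copy fixes their direction, and they are not counted with the 2 above.

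LEA genes outside the cold-regulated list were mostly too dim to follow. Of 47 listed, 32 were measured, of which 2 rose, 6 fell and 24 did not pass, beside 15.7% of all measured loci that rose and 22.6% that fell. Their median log2 difference was -0.998, beside -0.29 over all measured loci. Those loci were of every brightness and not matched to the LEA genes for dimness, and background was lower on the submerged arrays. Of the 32, 22 were above background on none of the 6 arrays. Of the 4 whose mean signal lay above background, 2 fell and 2 did not pass, beside 32.1% of such loci that fell, with a median of -1.25 beside -0.13. This restriction was chosen after the values were seen.

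The brighter LEA genes split by gene. At2g23120 had log2 signals of 9.70, 8.88 and 9.80 on the submerged arrays, against 11.87, 11.56 and 11.36 on the control arrays, and was 4.39-fold lower (log2 difference -2.13, standard error 0.24, adjusted p = 4.29e-05, limma) with no overlap. XERO2, given above, was the other that fell. The dehydrin HIRD11 (At1g54410) averaged 13.82 ± 0.29 after light submergence and 13.90 ± 0.23 in controls (SD, n = 3 each), a log2 difference of -0.08 (standard error 0.22, adjusted p = 0.811, limma). At2g44060 had a difference of -0.44 (adjusted p = 0.0203, limma), below 1.5-fold, with no overlap between the groups.

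Among the dim LEA genes, DI21 (At4g15910) fell by 1.44 (standard error 0.51, adjusted p = 0.0402, limma) and was above background on 1 of 3 submerged arrays and on 3 of 3 control arrays. It did not pass after quantile normalization or without any one of 5 of the 6 arrays. M10 (At2g41280) was above background on all 3 submerged arrays and on no control array, with means of 5.97 ± 0.23 after light submergence and 1.18 ± 1.25 in controls (SD, n = 3 each; adjusted p = 0.00155, limma), and no fold is given because its submerged signal was below the control arrays' background. At2g03850 passed upwards with 2 of 3 submerged arrays above background and none of the controls. At3g02480, At4g13230 and At4g38410 passed downwards below background in both groups, so their folds are not given. At3g02480 and At4g13230 did not pass after quantile normalization, nor without any one of 5 and of 4 of the 6 arrays.

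**Figure D5:**
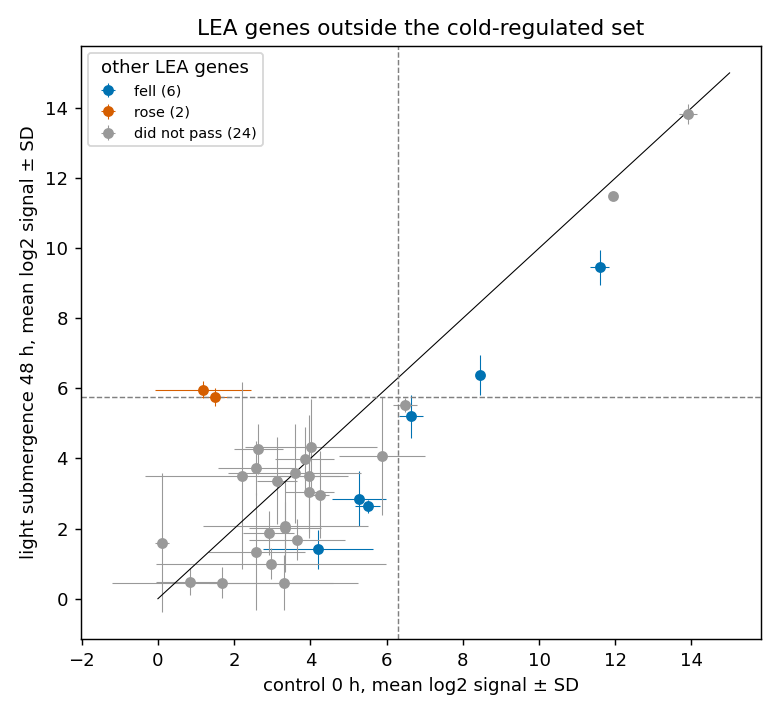
Mean log2 signal after light submergence 48 h (vertical axis) against control 0 h (horizontal axis) for the 32 measured LEA genes outside the cold-regulated list, with bars of 1 SD (n = 3), a solid line of equal signal and dashed lines at the mean background of each condition. Most genes lay at the lower left, below background in both conditions, and 6 fell (blue), 2 rose (orange) and 24 did not pass (grey).

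The remaining lists had almost no probe sets named by the annotation. None of the 41 listed genes of ABA synthesis and signalling was measured in this way. Of 25 genes of the dehydration and ABA response, only HIS1-3 (At2g18050), a linker histone induced by drought, was measured. Its log2 signals were 5.96, 6.18 and 7.48 after light submergence, against 3.70, 6.30 and 5.07 in controls, a log2 difference of 1.52 (standard error 0.73, adjusted p = 0.121, limma), with overlapping groups. Of 15 clock genes only GI was measured. GI averaged 11.04 ± 0.17 after light submergence and 10.92 ± 0.10 in controls (SD, n = 3 each), a log2 difference of 0.12 (standard error 0.14, adjusted p = 0.549, limma). A further 4 ABA genes and 8 dehydration genes were named only through that shortened copy and are not counted in these lists.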

How the data were processed

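RNA of 6 samples was hybridised to ATH1 arrays. The authors summarised the arrays with MAS 5.0, with no version given. The deposited values are log2 signals. The authors had scaled the arrays, whose 2% trimmed means of linear signal come to 495 to 496. RNA was extracted with Trizol per the labels and with a column kit per the methods. Names came from the annotation of the array, matched to TAIR10.1 loci. Of 22746 probe sets, 13513 had 1 gene, of which 13436 matched 13286 distinct loci, 503 had several genes, 957 were named only through the supplementary table, of which a shortened copy of 1998 rows, all of raised genes, was used, and 7773 had no name. KIN1 and KIN2 are the only listed genes on a shared probe set. For a locus on several probe sets the brightest on average was used. No sequence or promoter was read, because no table of them was used here.

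Light submergence was compared with control by limma 3.58.1 (R 4.3.3; lmFit, then eBayes with a variance trend), over all 22746 probe sets, with Benjamini-Hochberg adjustment. A probe set counted as changed at 1.5-fold or more with an adjusted p below 0.05. Where a changed gene was above background on no array of 1 condition, a bound against that condition's background stands in for the fold. It was computed from means of log2 values and is left out where stated. Background was lower on the submerged arrays, so bounds on decreases are larger than they would be against the control background. Replicates are the samples so labelled, and precision is limited by how few arrays there are. The members and gene lists were chosen with earlier results of these data known. Genes named are the members, changed genes of each list (up to 4 a direction) above background on all arrays of 1 condition, genes bearing on a member by name or position, up to 2 measured neighbours a side, the 5 nearest patterns and markers. The dimmer LEA genes were added after their values were seen.

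The fit was tested on simulated data. The first simulations, which included dim probe sets, recovered too few changes, and the simulation, not the fit, was then revised until most large changes were recovered. The version kept drew its changed probe sets only from those with a mean signal above background, so recovery of dim ones is poorer, and its false share of calls was above the nominal 0.05.

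The alternatives tried were a replicate block, each array left out in turn, other thresholds, no variance trend, quantile normalization, the 75th percentile as scale, an offset of 32, and only probe sets above background on 3 or more arrays. Other background levels and the restriction of the LEA list were added after the data were seen. Python 3.11.15 and matplotlib 3.10.9 made the figures.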

Additional observations from a re-analysis of the deposited data

How the results depend on the processing

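No result reversed. The decrease of COR15A, COR15B, KIN1/KIN2 and COR47 kept its direction under every alternative run for them. The median log2 difference over their 4 probe sets was -6.74, -5.65 with an offset of 32 added to the signal, and -6.99 to -6.21 with 1 array omitted. The count of changed LEA genes outside the list was 8, and 5 after quantile normalization (2 up, 3 down), 4 with dim probe sets filtered out (1 up, 3 down), 2 among genes whose mean signal lay above background (0 up, 2 down), and 5 to 7 with 1 array omitted, 5 without light submergence replicate 2 and 5 without control replicate 3. The count of changed dehydration genes was 0, but HIS1-3 made it 1 with quantile normalization, and it ranged over 0 to 1 across single omitted arrays, the 1 being without control replicate 2. The changed probe sets numbered 9684, and 8788 to 9575 with 1 array omitted. The cause of these shifts was not tested, except that leaving out arrays and filtering reduce the samples or probe sets tested. Of 80 other single genes in 931 alternative fits, 895 kept their call, 27 lost it and 9 gained it, in 11 genes. The 80 include the genes named only through the shortened copy, which fixes their direction. They also include the 5 nearest patterns, picked for their likeness to the listed genes, so the share that kept its call is not independent of those choices.

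The same-numbered arrays did not deviate together (correlations of 0.027, -0.012 and 0.059), so the numbers were not read as pairs. With the replicate number as a block, 9339 probe sets changed, and DI21 and At3g02480 no longer passed. No alternatives were run for the ABA list, which had no measured gene, and promoter motifs were not searched. Signals near or below background limit COR15A, COR15B and KIN1/KIN2 after light submergence, and most LEA genes in both conditions.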

Other observations

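3 further genes with names or roles near the cold and drought response were picked after their values were seen. HVA22C, of a family known for induction by ABA and stress in barley, was above background on no submerged array and fell at least 7.22-fold (adjusted p = 1.07e-05, limma), with log2 signals of 5.46, 5.20 and 5.60 on the submerged arrays, against 8.60, 8.64 and 8.55 in controls. SRC2, the relative of a cold-regulated soybean gene, had log2 signals of 13.22, 13.02 and 12.80 after light submergence, against 10.32, 10.27 and 10.19 in controls, and rose 6.75-fold (adjusted p = 4.72e-07, limma). DI19, a zinc-finger protein gene induced by drought, averaged 13.55 ± 0.23 after light submergence and 12.05 ± 0.22 in controls (SD, n = 3 each) and rose 2.83-fold (adjusted p = 8.66e-05, limma).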
